A study of Homo sapiens with 48 samples.

Results

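The comparison described here is the addition of gefitinib at 50 µM to H1975 cells that also received CKI, compound kushen injection, at 1 mg/mL. It sets the 3 libraries that carry both agents (the combination libraries) against the 3 libraries with CKI 1 mg/mL and no gefitinib (the CKI libraries). The columns were chosen by their treatment labels alone, and they make up 6 of the 48 libraries of the series. H1975 is an established line of human non-small cell lung cancer whose EGFR gene carries an activating mutation and one that weakens gefitinib binding. Gefitinib is an inhibitor of the EGFR kinase, and CKI is a plant extract given by injection. The whole series holds 16 groups of 3 libraries, with untreated cells and cells given gefitinib, CKI or a preparation labelled YFSJ, singly and in pairs of gefitinib with a preparation.

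All 6 libraries were taken after 24 h of treatment, and they share the CKI dose, so the contrast measures what gefitinib changed in the presence of CKI; the labels give no order of addition. Untreated cells and cells with gefitinib 50 µM alone, both at 24 h, gave the response without CKI. Cells with CKI 2 mg/mL, with and without gefitinib 50 µM, gave the response beside the higher CKI dose. Each group is 1 cell line treated at 1 time, and nothing in the labels says that the vehicle of gefitinib was given to the other groups. The labels call the 3 libraries of a group biological replicates without saying how they were separate. The p-values measure the spread between libraries of a group, pooled over all groups of the series.

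EGFR signals through the RAS and ERK kinases, which raise cyclin D and immediate growth genes and so drive cells from G1 into DNA replication and mitosis. Cells that stop cycling lower the genes of replication, which E2F factors switch on, and those of mitosis, which many promoters control through a short element called CHR. Cells short of amino acids or with a disturbed endoplasmic reticulum make the transcription factor ATF4, which raises amino acid supply genes and CHOP (DDIT3). Cells short of sterol activate SREBP2, which raises the enzymes of cholesterol synthesis together.

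The 6 libraries held between 19890765 and 23806186 counts. Unless stated otherwise, CPM is a gene's count relative to the size of its library, which was scaled by a TMM factor. A floor of 3 counts corresponded to between 0.126 and 0.151 CPM on library totals without that factor, and it covers counting error only. The combination libraries stood apart from the CKI libraries in several technical values: their TMM factors were 1.08 to 1.11 against 0.958 to 1.01, and the row named RNR2, a ribosomal RNA symbol, took 1.02% to 1.20% of counts against 0.483% to 0.625%. Genes with at least 1 count numbered 18402 to 18677 in the combination libraries and 17828 to 18053 in the CKI libraries. The part of these differences in the results below was not tested. With libraries scaled by their totals alone, the median log2 change of all genes moved from 0.02 to 0.17, and the calls changed from 3032 higher and 3131 lower to 4609 higher and 1851 lower, so directions below are relative to the bulk of genes.

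The labelled cell type was checked against marker lists. NKX2-1, the lung lineage factor, was at 25.4 to 32.0 CPM over the 6 libraries, EGFR was at 87.7 to 125 CPM, and the surfactant gene SFTPA1 had 0 counts, which allows up to 3 counts in a library. The labels also carry a catalogue number that belongs to the breast line MCF-7, but the estrogen receptor ESR1 had at most 3 counts in a library and the progesterone receptor PGR had 0. Markers with a median of at least 1 CPM numbered 8 of 21 for alveolar and airway cells, 8 of 17 for luminal breast, 3 of 20 for liver, 3 of 15 for blood and 4 of 11 for fibroblasts. Their summed levels were taken as CPM on library totals alone, without the TMM factors. For the alveolar list they were 735 to 845 CPM in the combination against 668 to 718 CPM with CKI. The TMM factors were 1.08 to 1.11 in the combination and 0.958 to 1.01 with CKI. Scaling by them would bring the alveolar ranges closer, so their separation is not read as a difference. The sums were 2050.2 to 2262 against 2749 to 3046 CPM for the luminal breast list. They were 115 to 121 against 59.9 to 63.1 CPM for the liver list. For blood markers the sums were 163 to 182 against 164 to 173 CPM, and for fibroblast markers 473 to 524 against 454 to 551 CPM. ALB, the defining liver marker, had at most 3 counts in any of these 6 libraries, and APOB, DCN and PGR had none.

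Adding gefitinib moved a large share of the transcriptome. Of 15789 genes tested, 3032 rose (19.2% of those tested) and 3131 fell (19.8%) at an adjusted p under 0.05 in edgeR's quasi-likelihood test with Benjamini-Hochberg adjustment, and such genes are called below. Changes of at least 2-fold were called upward in 797 genes and downward in 279. Genes under 5 CPM in both groups made up 572 of these rises and 92 of these falls. Among genes with at least 5 CPM in the higher group the split was 225 upward and 187 downward. The genes of DNA replication and mitosis, of cholesterol synthesis and of glycolysis fell, as did many genes that report ERK signalling, while genes of the ATF4 response and of NF-kappaB rose. The plot of list members shows these groups side by side. Lists are described by the number of members called and their median, against a median of 0.02 over all genes tested. The lists were not put to a set test. Libraries of the 2 groups did not overlap in 8564 of all 15789 genes tested. Most list members were named for their small p, which favours such separation. Where it is given for them below, it is description and no further support. Genes are named by a rule given with the processing, while CCNB1, CCND1, LSS, SREBF2, DDIT3, BBC3, JDP2, CHAC1 and most genes given with a log2 value alone were chosen after their values were seen.

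**Figure D1:**
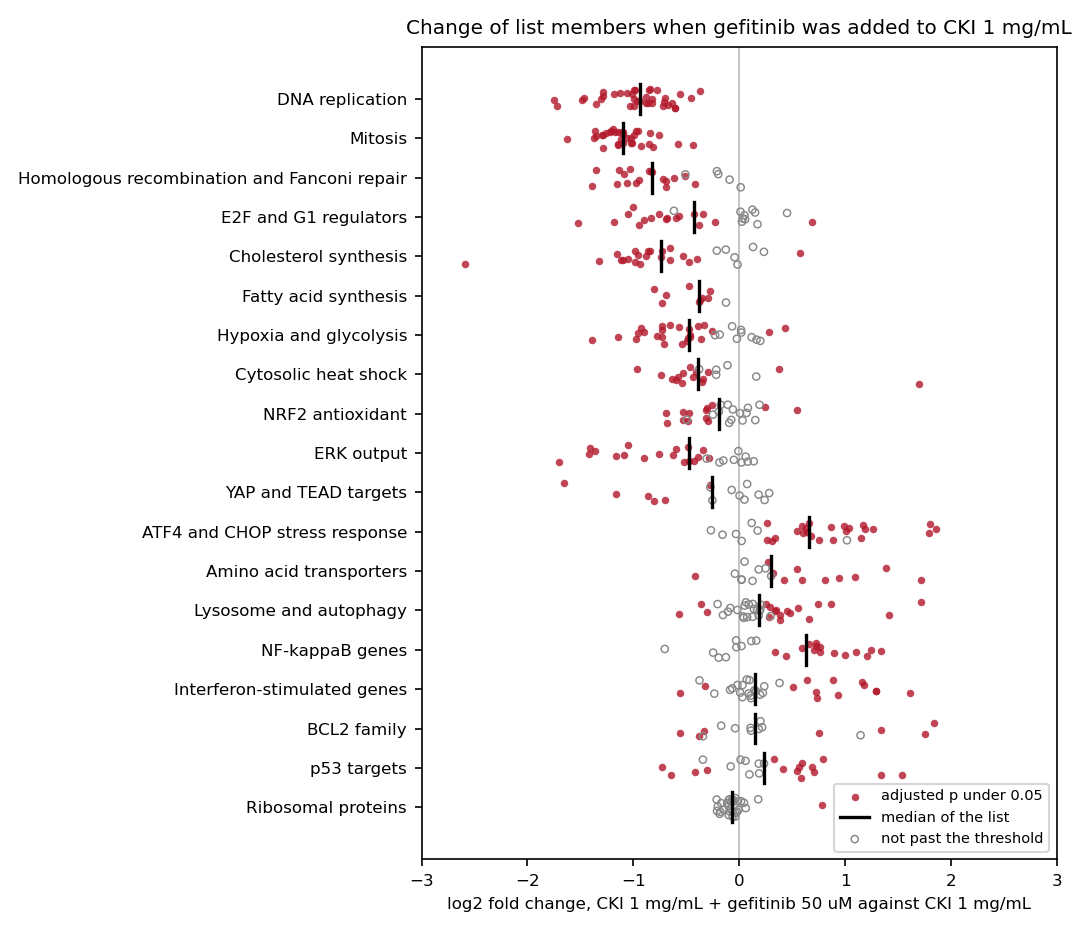
Each point is 1 measured gene of a list, placed by its log2 fold change between the combination libraries and the CKI libraries (x axis) in the row of its list (y axis). Filled points passed an adjusted p of 0.05, open points did not, and black bars are list medians. The mitosis and DNA replication members all lie left of 0, with medians of -1.10 and -0.94, and the ATF4 and CHOP members lie mostly to the right, with a median of 0.66.

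All 37 measured DNA replication genes and all 34 mitosis genes fell, against 19.8% of genes tested. The median log2 fold change was -0.94 for replication and -1.10 for mitosis. RRM2, the small subunit of ribonucleotide reductase that supplies deoxynucleotides, was at 154, 148 and 169 CPM in the 3 CKI libraries and at 48.8, 46.8 and 47.2 CPM in the 3 combination libraries. Every combination library lay far below the lowest CKI library, and the log2 fold change was -1.72 ± 0.11 (SE), adjusted p = 4.95e-16. MCM10, which helps load the replication fork, went from 23.2, 19.6 and 22.3 CPM to 6.14, 7.12 and 6.06 CPM, a change of -1.75 ± 0.13 (SE), adjusted p = 2.94e-14. The helicase subunit MCM3 was at 105, 113 and 111 CPM with CKI and at 53.7, 51.3 and 53.1 CPM with gefitinib added (-1.06 ± 0.073 (SE), adjusted p = 2.4e-15). POLA2, a subunit of the polymerase that primes DNA synthesis, was at 40.9, 42.2 and 40.9 CPM and then 16.9, 16 and 15.7 CPM (-1.35 ± 0.091 (SE), adjusted p = 1.18e-15). For each of these genes the lowest CKI library lay above the highest combination library. UHRF1, which keeps DNA methylation at replication forks, was among the 10 largest falls of the naming rule, from 177, 185 and 179.6 CPM to 46.1, 50.8 and 45.8 CPM (-1.92 ± 0.10 (SE), adjusted p = 1.56e-18).

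In mitosis, PLK1, the kinase that matures spindle poles, was at 146, 168 and 149 CPM in the CKI libraries and at 60.9, 64 and 56.5 CPM in the combination (-1.35 ± 0.097 (SE), adjusted p = 8.5e-15). CDC20, which turns on the ubiquitin ligase of anaphase, fell from 184, 204 and 182 CPM to 87.8, 82.7 and 86.6 CPM (-1.15 ± 0.083 (SE), adjusted p = 8.68e-15). The condensin subunit NCAPH went from 40.3, 42 and 41.4 CPM to 18.3, 18 and 17.8 CPM (-1.19 ± 0.081 (SE), adjusted p = 1.51e-15). Libraries of the 2 groups did not overlap for these genes, and replicates of a group lay close together. CCNB1, the mitotic cyclin, had a log2 fold change of -1.11 ± 0.087. The smallest change among the 34 was that of the mitotic transcription factor FOXM1 (-0.44), and the largest that of the kinetochore protein SPC25 (-1.63).

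Because the mitosis genes fell together, the bases before their starts were searched for the CHR element, written TTTGAA or TTTAAA, on both strands. RefSeq promoter windows (GRCh38.p14) were found by symbol for 11626 of 15789 genes, and 250 bases before each listed start were read. The CHR letters occurred in 20 of 29 mitosis genes with a window (69.0%), in 6 of 34 replication genes (17.6%) and in 2257 of all 11626 genes (19.4%). The E2F letters TTTGGCGC or TTTCGCGC occurred in 7 of 34 replication genes (20.6%), 1 of 29 mitosis genes (3.45%) and 217 of all genes (1.87%). The motifs were searched separately, and none contains another. A match describes letters and is not a binding site. The 5 mitosis genes with the smallest p that hold the CHR letters are shown, 5′ to 3′ along the gene's strand, so that the element can be seen in its surroundings, with the CHR letters in capitals and the match nearest the start taken.
PLK1 (chr16:23678833-23678888, plus strand): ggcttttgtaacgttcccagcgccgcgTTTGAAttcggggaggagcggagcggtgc
CDC20 (chr1:43358889-43358948, plus strand): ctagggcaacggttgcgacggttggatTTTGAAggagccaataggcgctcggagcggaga
CCNB1 (chr5:69167093-69167149, plus strand): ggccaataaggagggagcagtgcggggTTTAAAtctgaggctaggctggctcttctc
SPC25 (chr2:168890645-168890680, minus strand): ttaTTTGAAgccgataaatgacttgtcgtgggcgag
KIF23 (chr15:69414267-69414326, plus strand): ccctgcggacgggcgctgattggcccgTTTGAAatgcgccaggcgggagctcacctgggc
The capitals end 24 bases before the start in PLK1, 60 in CDC20, 25 in CCNB1 and 50 in KIF23, and 242 in SPC25.

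Genes of recombination and Fanconi repair fell in 18 of 23 measured members, with a median of -0.83 and none higher. EXO1, the exonuclease that resects DNA ends, went from 27.6, 25.2 and 31.8 CPM to 12.1, 14.2 and 14.1 CPM (-1.06 ± 0.11 (SE), adjusted p = 1.37e-10). FANCI, part of the clamp that marks crosslinks, went from 32.5, 34.6 and 38.8 CPM to 18.5, 17.5 and 19 CPM (-0.95 ± 0.11 (SE), adjusted p = 3.99e-09), and RMI2, of the complex that dissolves crossovers, had a log2 change of -0.97 ± 0.10. The groups did not overlap in these 3 genes. The members that did not pass were BRCA2 (-0.20), PALB2 (-0.21), DMC1 (-0.51), FANCC (-0.09) and FANCE (0.01).

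Of 27 E2F and G1 regulators, 16 fell and 1 rose, with a median of -0.43; with libraries scaled by totals, 12 fell and 4 rose. E2F1, the activator of S phase genes, was at 129, 149 and 125 CPM with CKI and at 55.3, 61.2 and 60.8 CPM in the combination (-1.18 ± 0.11 (SE), adjusted p = 5.08e-12). CDK2, the kinase of the G1 to S step, went from 64, 62 and 65.9 CPM to 31.3, 33.7 and 30.5 CPM (-1.01 ± 0.08 (SE), adjusted p = 1.24e-13). The D-type cyclin CCND3 went from 133, 157 and 137 CPM to 75.2, 78.3 and 76 CPM (-0.90 ± 0.097 (SE), adjusted p = 5.86e-10), and CCND1 had a log2 change of -1.05 ± 0.13. The gene that rose was CDKN1A, which encodes the inhibitor p21, from 124, 131 and 124 CPM to 207, 197 and 206 CPM (0.69 ± 0.078 (SE), adjusted p = 1.59e-09). In each of these genes the libraries of both groups were separate.

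Genes that report ERK activity fell in 18 of 27 measured members, none rose, and the median was -0.47. ETV4, an ETS factor induced by ERK, was at 44.1, 54 and 45.2 CPM in the CKI libraries and at 18, 19.8 and 16 CPM in the combination (-1.41 ± 0.12 (SE), adjusted p = 5.67e-13). ETV1, of the same family, went from 21.7, 20.01 and 21.4 CPM to 6.44, 6.04 and 6.89 CPM (-1.70 ± 0.16 (SE), adjusted p = 7.3e-12). DUSP6, the phosphatase that dephosphorylates ERK in negative feedback, went from 33.9, 28.9 and 30.1 CPM to 15.6, 12.9 and 13.1 CPM (-1.16 ± 0.12 (SE), adjusted p = 1.02e-10). Every combination library was below every CKI library for all 3. CKI alone had moved these genes the other way: against untreated cells, which share the CKI libraries with the comparison above, 18 of the 27 rose and 3 fell, where 13.2% of all genes tested rose and 14.7% fell. DUSP6 was at 17.3, 17.9 and 16.8 CPM untreated, and ETV4 at 23.1, 25.5 and 29.8 CPM. Further falls were those of FOSL1 (-1.36), CCND1 and MYC (-0.62), while the immediate early genes EGR1 (-0.05), JUN (-0.19) and JUNB (0.14) did not pass the test. RGS4, a regulator that ends G protein signals, was the largest fall among called genes whose CKI libraries averaged 5 CPM or more and did not overlap the combination, from 42.2, 39.97 and 41.2 CPM to 4.54, 2.72 and 3.67 CPM (-3.49 ± 0.16 (SE), adjusted p = 3.17e-21).

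**Figure D2:**
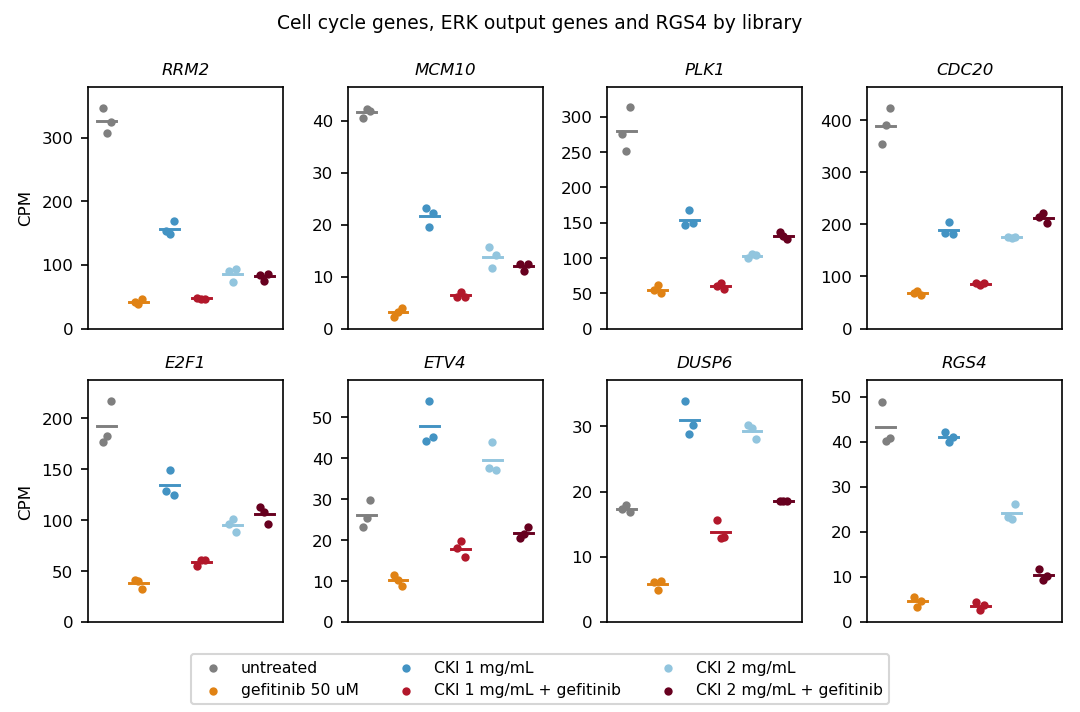
Panels give CPM (y axis, from 0) of 8 genes in every library of 6 groups at 24 h; points are libraries and bars group means. In all 8 panels the combination with CKI 1 mg/mL lies below CKI 1 mg/mL, and in RRM2, MCM10 and E2F1 the pair with CKI 2 mg/mL lies closer together than the pair with 1 mg/mL.

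Receptors of the EGFR family changed unequally. EGFR itself was at 104, 96.4 and 125 CPM with CKI and 87.7, 98.8 and 104 CPM with gefitinib added, and the ranges overlapped (log2 fold change -0.16 ± 0.16 (SE), adjusted p = 0.466). ERBB2 had a log2 fold change of 0.08 ± 0.11 (SE), adjusted p = 0.624, and MET one of -0.07 ± 0.13 (SE), adjusted p = 0.726. ERBB3, the kinase-poor partner of ERBB2, rose from 12.5, 12.9 and 14.7 CPM to 28.1, 26.1 and 28.5 CPM (1.04 ± 0.12 (SE), adjusted p = 8.95e-10), with no overlap. AXL, a receptor linked to resistance against EGFR inhibitors, fell from 77.3, 80.4 and 82.4 CPM to 41.2, 46.3 and 45 CPM (-0.86 ± 0.20 (SE), adjusted p = 0.000613). Over 21 receptor tyrosine kinases 8 rose and 5 fell (9 and 2 with libraries scaled by totals), where 19.2% of all genes tested rose and 19.8% fell. MERTK, of the AXL family, went from 5.54, 6.17 and 5.39 CPM to 13.7, 13.9 and 12.9 CPM (1.25 ± 0.17 (SE), adjusted p = 1.76e-07). PDGFRB, a platelet growth factor receptor, rose by a log2 value of 0.96 ± 0.14 from levels near 4 CPM, and the ephrin receptor EPHA2 fell (-1.34). Of 7 ligands of the family 2 fell, a share not far from that of all genes, and the list's median was 0.06. The 2 were NRG1 and HBEGF. NRG1, which binds ERBB3, went from 40.8, 39.7 and 43.3 CPM to 18.8, 19.4 and 21.6 CPM (-1.05 ± 0.088 (SE), adjusted p = 5.51e-13), and HBEGF changed by -0.68 ± 0.13.

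Gefitinib moved cholesterol synthesis genes in opposite directions in cells with and without CKI. Of 27 measured members 20 fell and 1 rose when gefitinib was added to CKI, with a median of -0.73. The same dose of gefitinib without CKI, in libraries that share none with this comparison, raised 25 of the 27 and lowered none, with a median of 1.37, where 27.6% of all genes tested rose and 26.8% fell. HMGCS1, the enzyme that makes HMG-CoA, was at 300.3, 265 and 319 CPM in the CKI libraries and at 139, 135 and 133 CPM in the combination. Untreated cells had 129, 116 and 115 CPM and cells with gefitinib alone 440.1, 439 and 515 CPM. The combination libraries thus lay far below each single agent and near the untreated range, and the log2 fold change on adding gefitinib to CKI was -1.12 ± 0.11 (SE), adjusted p = 1.86e-11.

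FDFT1, squalene synthase, went from 299, 295 and 306 CPM with CKI to 145, 136 and 123 CPM in the combination (-1.15 ± 0.10 (SE), adjusted p = 3.25e-12), and gefitinib alone had 384, 354 and 369 CPM. ACAT2, the thiolase at the head of the pathway, went from 50.5, 49.9 and 53 CPM to 18.8, 20.9 and 21.7 CPM (-1.32 ± 0.14 (SE), adjusted p = 1.37e-10). Both genes had combination libraries at or near the untreated level, which was 144, 134 and 143 CPM for FDFT1 and 21.8, 20.2 and 24 CPM for ACAT2. ACAT2 shares exon bases with SOD2 and TCP1 on the opposite strand, which unstranded libraries do not separate, and SOD2 rose (0.77). DHCR7, the last step of one branch to cholesterol, went from 284, 323 and 305 CPM to 144, 157 and 125 CPM (-1.10 ± 0.12 (SE), adjusted p = 3.66e-10). MVD, mevalonate decarboxylase, went from 144, 169.7 and 138 CPM to 73, 82.3 and 73.5 CPM (-0.98 ± 0.17 (SE), adjusted p = 2.19e-05), and MSMO1, a sterol oxidase, from 167, 154 and 168 CPM to 95.8, 96.7 and 101 CPM (-0.73 ± 0.11 (SE), adjusted p = 1.24e-06).

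The exception was LSS, lanosterol synthase, which rose from 154, 179.7 and 179 CPM to 247, 261 and 254 CPM (0.57 ± 0.13 (SE), adjusted p = 0.000319) and was at 584, 687 and 539 CPM with gefitinib alone. TM7SF2, a sterol reductase, was at 16, 21.1 and 16.7 CPM and 16.5, 17.8 and 18.9 CPM, with overlapping ranges (-0.02 ± 0.16 (SE), adjusted p = 0.956), and gefitinib alone had 34.7, 35.2 and 28.7 CPM against 3.68, 3.35 and 3.47 CPM in untreated cells. SREBF2, the gene of SREBP2, did not pass the test (-0.13 ± 0.10), nor did SREBF1 (0.23), SCAP (-0.04), PMVK (0.13) and SC5D (-0.21). CKI alone raised 25 of the 27 against untreated cells and lowered 2. That comparison shares the CKI libraries with the one described here, so both rest on the same high values. The sterol element TCACCCCAC was found before the start of 1 of the 20 members with a promoter window (5.00%, SREBF2) and of 55 of all 11626 genes (0.473%).

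**Figure D3:**
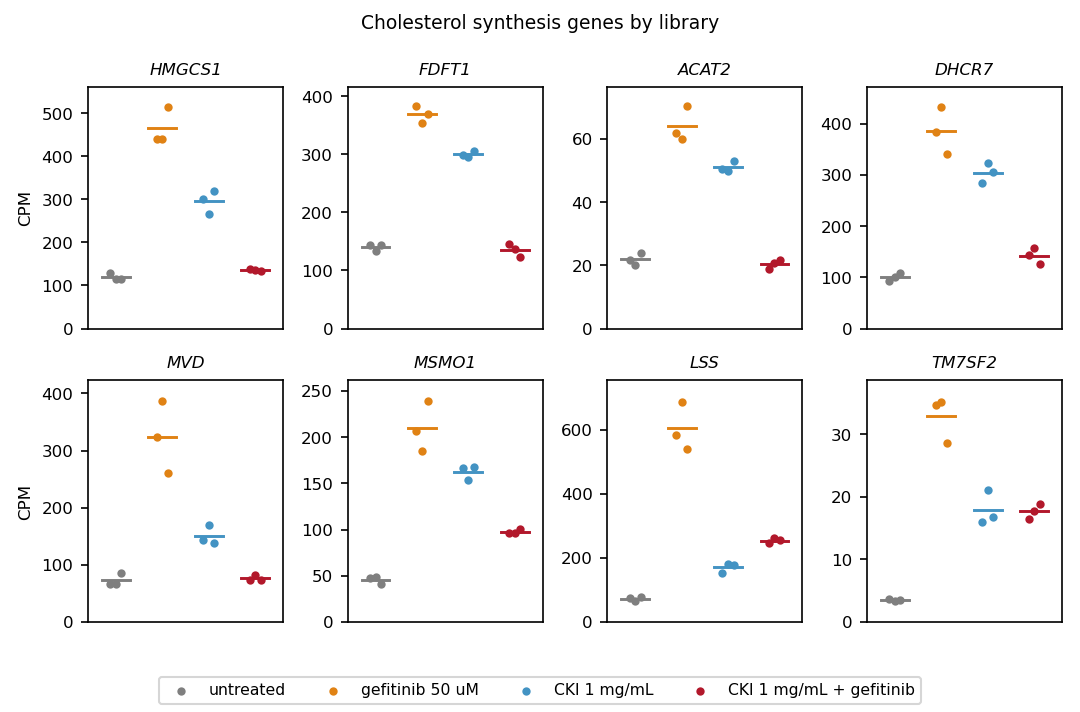
CPM (y axis, from 0) of 8 cholesterol genes in every library of 4 groups at 24 h; points are libraries and bars group means. In HMGCS1, FDFT1, ACAT2, DHCR7, MVD and MSMO1 both single agents lie above untreated cells and the combination lies below both; in LSS it lies between CKI and gefitinib, and in TM7SF2 with CKI.

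Fatty acid synthesis genes went the same way in 9 of 10 measured members, with a median of -0.38 (4 of 10 with libraries scaled by totals, none higher). ACLY, which makes cytosolic acetyl-CoA, went from 474, 474 and 494 CPM to 298, 304 and 291 CPM (-0.69 ± 0.088 (SE), adjusted p = 1.92e-08). FADS2, a desaturase, went from 123, 129 and 128 CPM to 71.1, 78.9 and 66.9 CPM (-0.81 ± 0.13 (SE), adjusted p = 4.21e-06), while gefitinib alone had 227, 250.5 and 187 CPM. ELOVL6, which lengthens palmitate, went from 90.02, 84.1 and 94.6 CPM to 49.8, 54.6 and 57.3 CPM (-0.73 ± 0.099 (SE), adjusted p = 9.19e-08). The groups did not overlap in these genes. Without CKI, gefitinib raised 6 of the 10 and lowered 2, ELOVL6 among the latter (-0.88).

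The joint list of glycolysis and hypoxia genes fell in 23 of 34 members and rose in 2, with a median of -0.47. Most of these falls were in glycolysis, where 18 of 21 members fell and 1 rose (median -0.54). Of 13 hypoxia response genes 5 fell, 1 rose and 7 were not called (median -0.07). LDHA, which turns pyruvate into lactate, was at 1823, 1767 and 1849 CPM and then 982, 923 and 897 CPM (-0.96 ± 0.096 (SE), adjusted p = 8.28e-11). PKM, pyruvate kinase, went from 2856, 3256 and 2928 CPM to 1553, 1612 and 1577 CPM (-0.93 ± 0.087 (SE), adjusted p = 1.25e-11). PGAM1, a mutase of the lower pathway, went from 458, 471 and 479 CPM to 255, 245 and 217 CPM (-0.97 ± 0.084 (SE), adjusted p = 1.1e-12). These are among the most abundant transcripts of the cells, and the groups did not overlap. PGK1 (-0.71) and the glucose carrier SLC2A1 (-0.48) fell as well, while VEGFA (0.12), NDRG1 (0.02) and KDM3A (0.20), which hypoxia raises in many cells, did not pass the test.

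NRF2 antioxidant genes fell in 11 of 27 members and rose in 2 when gefitinib was added, with a median of -0.19. With libraries scaled by totals 7 fell and 3 rose. Of all genes tested 19.8% fell and 19.2% rose. With CKI alone 22 of the 27 were higher than in untreated cells, where 13.2% of all genes tested rose. That comparison shares the CKI libraries with the one described here, so both rest on the same high values. NQO1, a quinone reductase, went from 769, 737 and 714 CPM to 553, 517 and 533 CPM (-0.47 ± 0.086 (SE), adjusted p = 2.37e-05), still above its untreated level of 446, 407 and 424 CPM. PRDX1, a peroxiredoxin that shares exon bases with MMACHC on the opposite strand, had a log2 change of -0.53 ± 0.095. The members that rose were the cystine carrier SLC7A11 (0.55) and TRIM16L (0.24). HMOX1, heme oxygenase, fell beside CKI (-0.30) and was 1.65 higher on the log2 scale with gefitinib alone than in untreated cells.

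Cytosolic heat shock genes fell in 13 of 20 members and rose in 2, with a median of -0.39 (8 fell with libraries scaled by totals). CHORDC1, an HSP90 partner, went from 50.7, 39.1 and 48.6 CPM to 22.3, 21.6 and 27.1 CPM (-0.96 ± 0.10 (SE), adjusted p = 6.14e-10). BAG3, a cochaperone of HSP70, went from 161, 176 and 154 CPM to 105, 112 and 99.8 CPM (-0.63 ± 0.092 (SE), adjusted p = 4.07e-07). HSP90AB1 went from 1408, 1456 and 1426 CPM to 1009, 1030.5 and 921 CPM (-0.54 ± 0.069 (SE), adjusted p = 3.23e-08). HSPA6, a strictly inducible HSP70, moved the other way, from 2.54, 3.25 and 1.84 CPM to 7.31, 7.55 and 9.65 CPM (1.69 ± 0.17 (SE), adjusted p = 1.5e-10); the constitutive HSPA8 fell (-0.74). In the groups with CKI 2 mg/mL HSPA6 was at 134, 109 and 134 CPM, and at 362, 356 and 285 CPM with gefitinib added.

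The ATF4 and CHOP stress response rose: 24 of 31 measured members were higher and none lower, with a median of 0.66. ATF3, a stress factor induced through ATF4, went from 20.3, 17.9 and 16.3 CPM to 65.2, 63.6 and 68.7 CPM (1.86 ± 0.14 (SE), adjusted p = 4.87e-14). ADM2, a secreted peptide, went from 19.2, 21.6 and 18.2 CPM to 65.5, 71.2 and 68.1 CPM (1.80 ± 0.13 (SE), adjusted p = 1.54e-14). NUPR1, a chromatin-linked stress protein, went from 38.7, 39.4 and 31.2 CPM to 125, 127 and 129 CPM (1.80 ± 0.15 (SE), adjusted p = 3.06e-12), and DDIT3 had a log2 change of 1.26 ± 0.20. The combination libraries of each gene lay close together, and no libraries of the 2 groups overlapped. The composite ATF4 and CHOP letters TGATGCAA, read on both strands, lay before the start of 3 of 25 members with a window (12%) and of 72 of all 11626 genes (0.619%). The stretches around them in JDP2, a repressor of the AP-1 family, and CHAC1, which degrades glutathione, are shown with the letters in capitals; in CHAC1 they run on the other strand.
JDP2 (chr14:75427979-75428021, plus strand): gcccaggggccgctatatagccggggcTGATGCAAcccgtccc
CHAC1 (chr15:40953235-40953296, plus strand): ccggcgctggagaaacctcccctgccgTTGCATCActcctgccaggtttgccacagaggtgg
JDP2 rose by a log2 value of 1.17 ± 0.11 and CHAC1 by 1.15 ± 0.13.

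Amino acid carriers rose in 10 of 19 members and fell in 1 (median 0.30). SLC1A4, a carrier of small neutral amino acids, went from 18, 20.01 and 19.7 CPM to 47.6, 50.7 and 52.5 CPM (1.38 ± 0.12 (SE), adjusted p = 1.77e-12). SLC7A8, of the large neutral type, went from 2.74, 2.73 and 2.82 CPM to 9.77, 9.32 and 8.37 CPM (1.72 ± 0.19 (SE), adjusted p = 1.15e-09), and the glycine carrier SLC6A9 had a log2 change of 1.09 ± 0.13. These groups of libraries were separate. The cytosolic aminoacyl-tRNA synthetases split, with 7 higher and 5 lower of 19 (12 and 3 with libraries scaled by totals): WARS changed by 0.46 ± 0.078, AARS by 0.45 ± 0.095 and CARS by 0.42 ± 0.071, while FARSA (-0.66) and HARS (-0.56) fell. Endoplasmic reticulum genes split as well, with 7 higher and 5 lower of 22 (9 and 1 with libraries scaled by totals). HERPUD1, of the degradation complex, went from 74.6, 71.7 and 72.3 CPM to 143, 130.2 and 145 CPM (0.94 ± 0.11 (SE), adjusted p = 9.21e-09). DNAJB9 (0.70 ± 0.16) and the transcription factor XBP1 (0.50 ± 0.092) rose, and the lectin chaperone CALR fell (-0.36).

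Lysosome and autophagy genes rose in 15 of 38 members and fell in 3 (median 0.19). With libraries scaled by totals 24 rose and 1 fell. By role, 8 of 11 autophagy genes and 6 of 12 hydrolases rose, and 1 fell in each. Of 15 lysosomal membrane and proton pump genes only ATP6V0D2 rose and 1 fell, with a median of 0.05. ATP6V0D2, a proton pump subunit, went from 13.1, 11.6 and 12.7 CPM to 34.2, 31.8 and 33.7 CPM (1.42 ± 0.15 (SE), adjusted p = 1.94e-10). GABARAPL1, which coats autophagosomes, went from 21.8, 19.3 and 21.8 CPM to 38.1, 38 and 29.6 CPM (0.74 ± 0.11 (SE), adjusted p = 2.25e-07), and ASAH1, acid ceramidase, changed by 0.55 ± 0.082. No overlap was seen in the 3 genes. In the Rag and folliculin group 6 of 12 rose and 2 fell (7 and 1 with libraries scaled by totals), and the risers included RRAGD, a GTPase that signals amino acids to mTORC1, from 2.64, 3.15 and 2.27 CPM to 5.62, 4.88 and 4.96 CPM (0.94 ± 0.17 (SE), adjusted p = 2.35e-05). FNIP2 and RRAGC changed by 0.74 ± 0.13 and 0.53 ± 0.099.

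NF-kappaB genes rose in 15 of 24 members with none lower (median 0.63). TNFAIP3, which switches the pathway off, went from 14.4, 13.8 and 13.6 CPM to 26.8, 27.7 and 29.3 CPM (1.00 ± 0.14 (SE), adjusted p = 2.02e-07). BIRC3, an inhibitor of apoptosis, went from 3.15, 3.67 and 3.85 CPM to 8.43, 7.72 and 9.27 CPM (1.25 ± 0.19 (SE), adjusted p = 7.68e-07). ICAM1, an adhesion molecule, went from 67.2, 69.8 and 66.2 CPM to 107, 115 and 123 CPM (0.77 ± 0.10 (SE), adjusted p = 5.5e-08). The groups were separate in all 3. The secreted members IL6 (1.34) and CXCL8 (1.21) also rose, whereas CXCL1 (-0.03), IL1B (0.16) and CCL2 (-0.70) did not pass. IL24, a cytokine that kills tumour cells, went from 31.3, 28.3 and 25.3 CPM to 70.9, 70.2 and 76.5 CPM (1.36 ± 0.20 (SE), adjusted p = 1.18e-06), and GDF15, a secreted stress signal, from 139.6, 141 and 112 CPM to 233, 256 and 281 CPM (0.97 ± 0.20 (SE), adjusted p = 0.000178).

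Interferon-stimulated genes rose in 11 of 32 members and fell in 2 (median 0.15), where 19.2% of all genes tested rose and 19.8% fell. CKI alone had lowered 19 of the 32 against untreated cells and raised 1 (median -0.51), where 14.7% of all genes tested fell and 13.2% rose. That comparison shares the CKI libraries with the one described here, so both rest on the same low values. OAS1, a sensor of double-stranded RNA, went from 6.05, 7.01 and 7.61 CPM to 19.3, 22.7 and 21.4 CPM (1.61 ± 0.11 (SE), adjusted p = 5.05e-15). STAT2, which carries the interferon signal, went from 23.4, 21.3 and 25.8 CPM to 51.8, 55.1 and 52.3 CPM (1.18 ± 0.13 (SE), adjusted p = 4.16e-10), and XAF1 changed by 1.30 ± 0.11. Among other members, ISG15 (0.16), IFIT1 (-0.02) and IFI6 (0.10) did not pass the test.

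Within the BCL2 family 4 of 16 members rose and 3 fell (9 and 1 with libraries scaled by totals), shares not far from the 19.2% and 19.8% of all genes. The 4 that rose are of the BH3-only type, which starts apoptosis. The other measured members, among them BID, BOK and BAX, were not called higher. BMF went from 5.08, 5.84 and 4.7 CPM to 18.5, 18.7 and 18.6 CPM (1.84 ± 0.16 (SE), adjusted p = 8.96e-13). HRK went from 4.06, 4.9 and 4.1 CPM to 12.5, 15.1 and 16.6 CPM (1.76 ± 0.13 (SE), adjusted p = 3.64e-14). BCL2L11, which encodes BIM and is lowered by ERK in many cells, went from 12.2, 12.1 and 15.8 CPM to 23.9, 21 and 22.8 CPM (0.75 ± 0.12 (SE), adjusted p = 3.09e-06), and BBC3, which encodes PUMA, changed by 1.34 ± 0.21. Libraries with and without gefitinib did not overlap for any of the 4. The protective BCL2L1 fell (-0.56), while MCL1 (0.11) and BCL2 (-0.04) did not pass. Among 23 p53 targets 11 rose and 4 fell (median 0.23), and 7 rose without the third combination library. TP53INP1 went from 2.13, 2.68 and 2.99 CPM to 8.56, 7.25 and 7 CPM (1.54 ± 0.18 (SE), adjusted p = 3.16e-09), XPC, a DNA damage sensor, changed by 0.55 ± 0.081, and MDM2 (-0.08) and BAX (-0.34) did not pass.

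**Figure D4:**
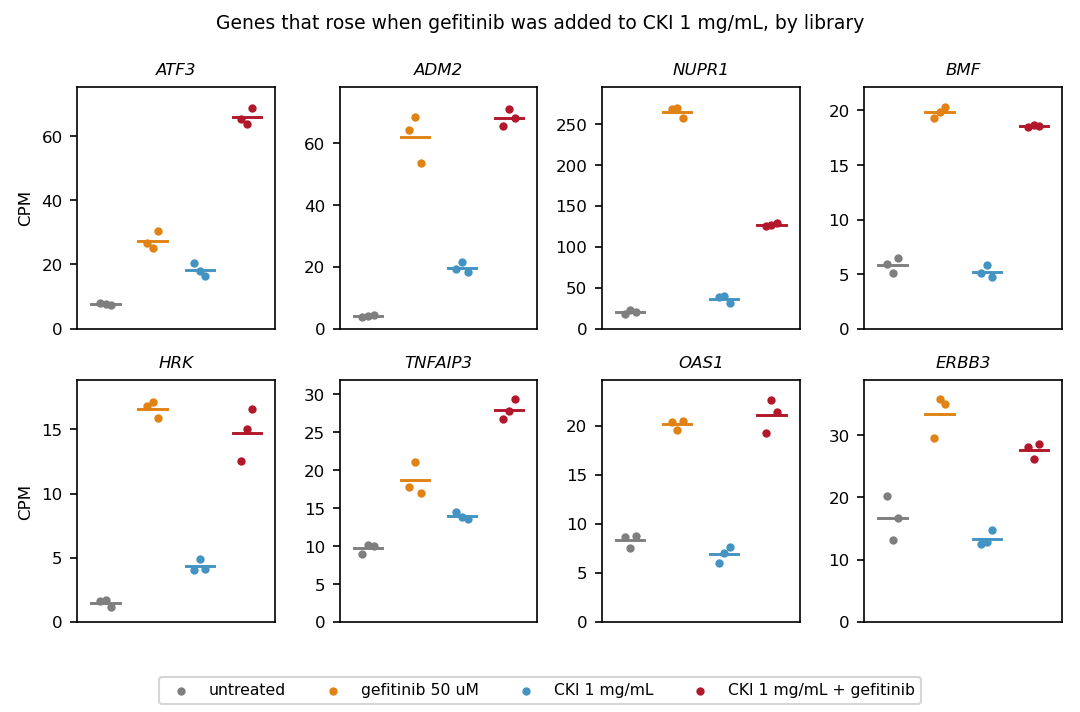
CPM (y axis, from 0) of 8 genes in every library of untreated, gefitinib, CKI 1 mg/mL and combination cells; points are libraries and bars group means. In each panel the 3 combination libraries lie above the 3 CKI libraries; of the 4 groups ATF3 is highest in the combination, and BMF, HRK, OAS1 and ADM2 lie nearer to gefitinib alone than to CKI alone.

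Matrix and mesenchymal genes fell in 9 of 19 members and rose in 2; 5 fell with libraries scaled by totals, without the second CKI library or without the third combination library. ITGA5, the fibronectin receptor, went from 303, 330.3 and 328 CPM to 189.7, 196 and 199 CPM (-0.72 ± 0.068 (SE), adjusted p = 1.62e-11). THBS1, thrombospondin, went from 239.7, 226 and 260.4 CPM to 121, 131 and 129.5 CPM (-0.93 ± 0.15 (SE), adjusted p = 6.09e-06). Each combination library was below each CKI library. Of 15 YAP and TEAD targets 6 fell and none rose (5 and 4 with libraries scaled by totals). CTGF, the usual readout of YAP, went from 79.96, 73.4 and 81 CPM to 26.9, 24.6 and 23 CPM (-1.65 ± 0.21 (SE), adjusted p = 8.45e-08). F3, tissue factor, went from 91.5, 84.3 and 91.8 CPM to 40.03, 39.1 and 40.4 CPM (-1.16 ± 0.13 (SE), adjusted p = 7.99e-10), and WWTR1, which encodes TAZ, changed by -0.70 ± 0.065, but CYR61 (-0.25) and ANKRD1 (-0.27) did not pass.

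The largest rises by the naming rule, which asks for 5 CPM in the higher group, included genes at low levels. KLHDC7B, a kelch repeat gene, went from 8.84, 10.4 and 7.69 CPM to 55.8, 65.9 and 55.6 CPM (2.72 ± 0.21 (SE), adjusted p = 9.77e-13). KCP, a secreted modulator of BMP signals, went from 5.18, 5.65 and 4.87 CPM to 26.3, 32.3 and 25.8 CPM (2.43 ± 0.33 (SE), adjusted p = 5.01e-07). LOC100130705, which lies next to KCP in the RefSeq annotation, changed by 2.63 ± 0.33, reaching 8.08, 8.76 and 9.31 CPM. IL1RN, the natural antagonist of interleukin 1, went from 2.84, 3.25 and 2.99 CPM to 13.9, 13.9 and 12.9 CPM (2.16 ± 0.33 (SE), adjusted p = 2.41e-06). DAPP1, an adaptor of phosphoinositide signals, changed by 2.05 ± 0.17, NEURL3 by 2.35 ± 0.27, SEC31B by 2.04 ± 0.34, ADCY10P1 by 1.99 ± 0.38, LOC100506548 by 1.95 ± 0.095, and AGR2, a disulfide isomerase of secretory cells, by 1.93 ± 0.25. The rule that chose these genes required separate libraries, so their separation is no result. Among the largest falls, LAMB1, a laminin chain, went from 10.01, 10.9 and 12.4 CPM to 2.77, 2.2 and 1.59 CPM (-2.35 ± 0.16 (SE), adjusted p = 1.18e-15), and IL7R, a cytokine receptor, from 27.3, 24.4 and 30.4 CPM to 8.56, 8.5 and 7.95 CPM (-1.72 ± 0.14 (SE), adjusted p = 3.93e-13). ACOX2, of peroxisomal bile acid synthesis, changed by -1.91 ± 0.13, AMOTL1, a partner of YAP, by -1.90 ± 0.16, the tight junction gene CLDN11 by -1.82 ± 0.23 and the forkhead gene FOXD1 by -1.81 ± 0.29.

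Smaller groups gave mixed results, and for metallothioneins, histones and ribosomal proteins the share of members that rose was near or below the 19.2% of all genes. Aryl hydrocarbon receptor genes rose in 5 of 9 members and none fell, and 2 to 3 rose without CKI library 1 or 2, without combination library 1 or 3, or without the libraries of the series that hold over 1000 ALB counts. AHRR, the repressor of the receptor, went from 24, 25.2 and 24.4 CPM to 50.8, 56.4 and 57.2 CPM (1.16 ± 0.13 (SE), adjusted p = 4.84e-10), and CYP1B1 changed by 0.52 ± 0.10 and TIPARP by 0.34 ± 0.13, while CYP1A1 did not pass (-0.06). Of 10 metallothionein and zinc genes 2 rose, MT1F (0.83 ± 0.18) and MT1M (0.84 ± 0.20), and MT2A fell (-0.52). Of 8 ABC carriers 3 rose and 1 fell, and 1 rose without the first CKI library or the third combination library; ABCA1, which exports cholesterol, went from 10.6, 10.1 and 11 CPM to 15.7, 14.5 and 17.3 CPM (0.59 ± 0.14 (SE), adjusted p = 0.000625), ABCC4 changed by 0.38 ± 0.13 and ABCB6 by 0.24 ± 0.098. Of 13 histone genes 3 rose, HIST1H2AC (0.51 ± 0.12), HIST1H2BD (0.32 ± 0.13) and HIST1H4H (0.58 ± 0.15), and 2 fell. Of 30 ribosomal protein genes RPL13A alone was called (0.78 ± 0.12), against 3 with libraries scaled by totals; the list's median was -0.07, and 0.08 with libraries scaled by totals. Among markers of other cells, HPX (1.61) and SERPINA1 (0.85) of the liver list rose. TIPARP, ABCC4, ABCB6, HIST1H2BD and HPX each missed the threshold under at least 1 alternative.

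The response beside CKI was then compared with the response without it, as the difference of both log2 fold changes in the same fit. Of 15789 genes, 1367 had a higher value beside CKI (8.66%) and 1431 a lower one (9.06%). With libraries scaled by totals, gefitinib without CKI gave 5269 higher and 3351 lower calls in place of 4364 and 4233, and CKI alone 2798 and 1543 in place of 2078 and 2323. With TMM factors, gefitinib without CKI called 27.6% of all genes tested higher and 26.8% lower. Beside CKI these shares were 19.2% and 19.8%. Gefitinib without CKI called 8597 genes, 4763 of which were also called beside CKI. The shared genes are 77.3% of the calls beside CKI and 55.4% of those without it, to be read against those shares of all genes. Both were higher in 2198 of these genes and both lower in 2442. A further 106 rose without CKI and fell beside it, 20 of them cholesterol synthesis genes and 6 fatty acid synthesis genes, and 17 did the reverse. Across all genes tested the 2 responses, which share no library but share the cell line and the agent, had a Pearson r of 0.655; genes are not independent replicates.

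**Figure D5:**
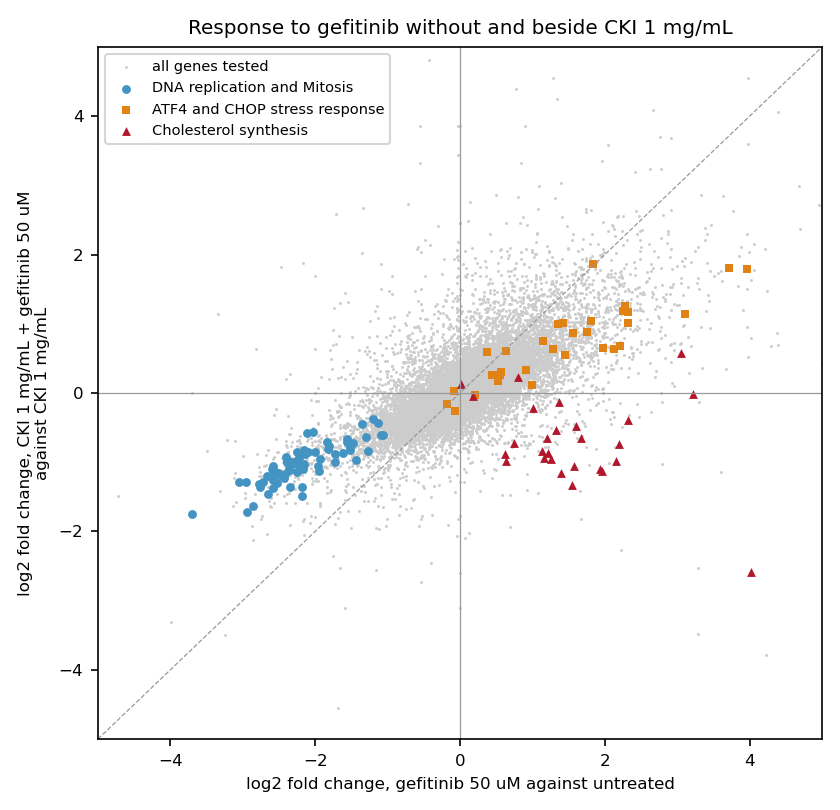
Each point is 1 of 15789 genes, with the log2 fold change for gefitinib 50 µM against untreated cells on the x axis and for gefitinib added to CKI 1 mg/mL on the y axis; the dashed line marks equal changes, and 12 genes lie outside the axes. Replication and mitosis genes (circles) lie below 0 on both axes and above the dashed line, ATF4 and CHOP genes (squares) lie mostly above 0 and below the line, and cholesterol genes (triangles) lie mostly right of 0 and below it.

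The cholesterol genes held 24 of 27 differences below 0 and none above, with a median difference of -2.11, and supplied 5 of the 6 largest negative differences among called genes with at least 5 CPM in their highest group. For HMGCS1 the response was 1.96 ± 0.11 without CKI and -1.12 ± 0.11 beside it, a difference of -3.08 ± 0.15 (SE), adjusted p = 1e-19. The difference was -3.24 ± 0.25 (SE), adjusted p = 2.07e-13 for TM7SF2, -3.13 ± 0.25 (SE), adjusted p = 2.46e-12 for MVD, -3.04 ± 0.17 (SE), adjusted p = 1.75e-18 for DHCR7 and -2.93 ± 0.16 (SE), adjusted p = 2.38e-18 for MSMO1. ERVV-2, an envelope gene of an endogenous retrovirus, had the largest one among those 6 (-3.61 ± 0.34 (SE), adjusted p = 4.27e-11), being at 0.539, 1.22 and 0.434 CPM untreated, 14.5, 13.1 and 14.2 CPM with gefitinib, 3.86, 3.58 and 2.65 CPM with CKI and 5.58, 5.82 and 4.77 CPM with both. It rose in both settings, far more without CKI.

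The cell cycle genes differed in the other direction. All 34 mitosis genes and 36 of 37 replication genes had a higher value beside CKI, which here means a smaller fall, and the median change was -1.10 against -2.38 for mitosis and -0.94 against -2.00 for replication. The CKI libraries were already lower than untreated ones in 33 of the 34 and 36 of the 37. MCM10 was at 40.6, 42.3 and 41.9 CPM untreated and 2.22, 3.25 and 3.97 CPM with gefitinib alone, and its difference between responses was 1.95 ± 0.20 (SE), adjusted p = 2.67e-10. E2F2, an activator E2F, was at 9.31, 9.34 and 11.3 CPM untreated, 0.927, 0.905 and 0.824 CPM with gefitinib, 2.34, 3.62 and 2.86 CPM with CKI and 1.69, 1.55 and 1.7 CPM with both (2.66 ± 0.32 (SE), adjusted p = 1.69e-08). DTL, which marks CDT1 for degradation, differed by 1.89 ± 0.20, and TERT, the telomerase enzyme, by 2.41 ± 0.43. CX3CL1, a membrane-bound chemokine, changed in opposite directions: 36.9, 44.6 and 47.6 CPM fell to 16.7, 17.1 and 12.3 CPM without CKI, and 19.7, 21.4 and 19.2 CPM rose to 34.8, 40.6 and 30.6 CPM beside it (2.30 ± 0.26 (SE), adjusted p = 1.3e-08). For HSPA6 the response without CKI did not pass the test (-0.48 ± 0.24), and the difference was 2.18 ± 0.30 (SE), adjusted p = 4.19e-07.

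Among the ATF4 and CHOP genes 18 of 31 had a lower value beside CKI and none a higher one, with medians of 0.66 against 1.43. The CKI libraries were already higher than untreated ones in 27 of the 31 and lower in 1, with a median of 0.69. Of all genes tested 13.2% rose and 14.7% fell with CKI alone. A lower value here thus means a smaller further rise from a raised level. ADM2 rose by 1.80 ± 0.13 beside CKI and 3.96 ± 0.16 without it (difference -2.16 ± 0.21 (SE), adjusted p = 5.13e-11). ATF3 rose by 1.86 ± 0.14 and 1.84 ± 0.16, a difference of 0.02 ± 0.21 that did not pass the test. Of the 27 ERK output genes 5 had a higher and 2 a lower value beside CKI, and the difference was -0.05 ± 0.17 for ETV4 and 0.41 ± 0.18 for DUSP6, neither past the threshold. ERBB3 (0.05 ± 0.16) and AXL (-0.06 ± 0.27) also did not differ past the threshold.

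The response was also compared with that to the same gefitinib dose beside CKI 2 mg/mL. The difference between the response at 1 mg/mL and that at 2 mg/mL was above 0 in 925 genes (5.86%) and below 0 in 1286 (8.14%). With libraries scaled by totals the split was 1691 above and 760.0 below, and the median of all genes moved from 0.01 to 0.16. Without the libraries of over 1000 ALB counts, which leaves the group with CKI 2 mg/mL and gefitinib with 1 library, 1076 genes were called in place of 2211; that library is then assumed to vary like the other groups. In that group 2 of 3 libraries held 2765 and 2800.0 ALB counts and the third 8, and the part of this in the differences below was not tested.

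All 34 mitosis genes and 36 of 37 replication genes had a lower value beside the lower CKI dose, with median differences of -1.25 and -0.94. Without the libraries of over 1000 ALB counts these were 32 of 34 and 30 of 37. GTSE1, a mitotic spindle protein, went from 63.3, 70.0 and 61.6 CPM to 21.8, 25.8 and 22.1 CPM beside 1 mg/mL and from 39.6, 40.2 and 41.1 CPM to 49.3, 48.8 and 49 CPM beside 2 mg/mL (-1.76 ± 0.13 (SE), adjusted p = 2.29e-13). GINS2, part of the replicative helicase, went from 27.3, 32.7 and 29.1 CPM to 11.5, 10.2 and 10.6 CPM and from 23.3, 19.7 and 22.6 CPM to 27.1, 25.2 and 26.3 CPM (-1.72 ± 0.15 (SE), adjusted p = 1.25e-11). The first fall of each gene had no counterpart in the second pair, where the libraries with gefitinib were above those without. FAM111B, a replication-linked protease, differed by -1.78 ± 0.25. For RGS4 the pair at 2 mg/mL was 23.4, 22.9 and 26.2 CPM and 11.8, 9.32 and 10.2 CPM, also a fall, and the difference was -2.28 ± 0.21 (SE), adjusted p = 5.14e-11; for LAMB1 the difference was -1.98 ± 0.23, and for ADORA1, an adenosine receptor, -1.80 ± 0.34.

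In the opposite direction, KLHDC7B was at 16.6, 27.6 and 21.5 CPM with CKI 2 mg/mL and at 22.8, 29.1 and 21.2 CPM with gefitinib added (2.57 ± 0.29 (SE), adjusted p = 2.94e-08). KCP differed by 2.29 ± 0.46, LOC100130705 by 2.44 ± 0.46 and IGFN1, a muscle-linked immunoglobulin domain gene, by 2.05 ± 0.42. IL24 went from 35.3, 33.1 and 34.4 CPM to 17.2, 20.7 and 16.3 CPM beside 2 mg/mL, where it had risen beside 1 mg/mL (difference 2.28 ± 0.29 (SE), adjusted p = 3.18e-07). ATG9B, of the autophagosome membrane, differed by 1.83 ± 0.50 (SE), adjusted p = 0.0118; without the libraries of over 1000 ALB counts its adjusted p was 0.104. The ATF4 and CHOP genes had a higher value beside 1 mg/mL in 20 of 31 cases (13 without the libraries of over 1000 ALB counts), with none in the other direction. Of the 27 cholesterol genes 8 were lower and 2 higher beside 1 mg/mL, against 4 and 4 with libraries scaled by totals and 4 and none without the libraries of over 1000 ALB counts. HMGCS1 changed by -1.12 ± 0.11 beside 1 mg/mL and by -1.05 ± 0.11 beside 2 mg/mL, and the difference was -0.07 ± 0.15.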

How the data were processed

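RNA-seq of H1975 cells was deposited by the authors as 1 table of raw read counts per gene symbol, with 27978 genes in 48 libraries (16 groups of 3), 4194 of them at 0 everywhere. Per the submitters' processing notes, the build was hg19 and the tools named are STAR 2.5.3a, edgeR and Trim Galore 0.4.2; the counting tool, the annotation and its strand setting are not given in the sources used here, so genes that overlap on opposite strands cannot be told apart.

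Libraries were grouped by their labels, which call them biological replicates. Genes with a count of at least 10 in enough libraries for the smallest group and at least 15 in all were kept (15789 genes, 99.97% of counts). One mean per group was fitted to all 48 libraries with edgeR 4.0.16 (R 4.3.3): TMM factors, robust quasi-likelihood tests, 32 residual degrees of freedom, and Benjamini-Hochberg adjustment over all genes tested, with adjusted p under 0.05 called. The common biological coefficient of variation was 0.102. An SE is the log2 fold change divided by the square root of its F statistic. The contrasts were gefitinib added to CKI 1 mg/mL and its difference from the response without CKI and from that beside CKI 2 mg/mL. The code was tested on simulated data.

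Named genes were the 10 largest called rises and falls among genes whose higher group averaged 5 CPM or more and whose libraries did not overlap, the 3 members of each list with the smallest p in its main direction, EGFR, ERBB2, ERBB3, MET and AXL, and the 6 largest called differences in each direction of both response comparisons; a few of these genes are not reported here. The comparison, its gene lists and its tests were chosen with earlier results of these data known. Alternatives were other scaling, no filter, DESeq2 1.42.0, a replicate block, an adjusted p under 0.01, only the groups compared, no libraries with over 1000 ALB counts, and leaving out each library. Promoter windows are from RefSeq on GRCh38.p14. Its coordinates apply to that build only and were not carried to hg19.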

Additional observations from a re-analysis of the deposited data

Results flagged for a closer look

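The response to gefitinib beside CKI 1 mg/mL differed from the response without CKI in 2798 genes and from the response beside CKI 2 mg/mL in 2211 genes, by the test of the difference itself. Against the response without CKI, the named differences above 0 were those of E2F2 (2.66), TERT (2.41), CX3CL1 (2.30), HSPA6 (2.18), MCM10 (1.95) and DTL (1.89). Those below 0 were ERVV-2 (-3.61), TM7SF2 (-3.24), MVD (-3.13), HMGCS1 (-3.08), DHCR7 (-3.04) and MSMO1 (-2.93), of which 5 are cholesterol synthesis genes. CX3CL1, HMGCS1, MVD, DHCR7 and MSMO1 were called in opposite directions in the 2 settings. Against the response beside CKI 2 mg/mL, the differences above 0 were KLHDC7B (2.57), LOC100130705 (2.44), KCP (2.29), IL24 (2.28), IGFN1 (2.05) and ATG9B (1.83). Those below 0 were RGS4 (-2.28), LAMB1 (-1.98), ADORA1 (-1.80), FAM111B (-1.78), GTSE1 (-1.76) and GINS2 (-1.72). Part of ATG9B overlaps NOS3 on the opposite strand. KCP and LOC100130705 are neighbours, so their values may not be independent.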

How the results depend on the processing

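For gefitinib added to CKI 1 mg/mL (6163 calls), an adjusted p under 0.01 gave 4275, the other settings over all or some of the groups gave 5605 to 7212, and leaving out 1 of the 6 libraries gave 5101 to 5336. Scaling by library totals gave 6460 calls and kept 79.2% of the main ones. For the difference from the response without CKI (2798 calls), an adjusted p under 0.01 gave 1638, and leaving out 1 library 2061 to 3238. For the difference from the response beside CKI 2 mg/mL (2211 calls), an adjusted p under 0.01 gave 1165, leaving out the libraries of over 1000 ALB counts gave 1076, and leaving out 1 library 1621 to 2205. A stricter threshold gives fewer calls by construction, and leaving out the ALB libraries leaves 1 library with CKI 2 mg/mL and gefitinib; the cause of the other changes was not tested. No named gene that was called turned its direction. With library totals some list medians changed sign, among them those of ribosomal proteins (-0.07 to 0.08) and ABC carriers (-0.10 to 0.05). So did the cholesterol genes' median difference between CKI doses (-0.14 to 0.0048). In that comparison other lists changed sign as well, among them receptor tyrosine kinases (-0.05 to 0.09) and the BCL2 family (-0.06 to 0.09). Its split turned from 925 higher and 1286 lower to 1691 and 760.0. The split of the difference from the response without CKI turned from 1367 higher and 1431 lower to 1494 and 1245. Of the named genes' values under the alternatives, 1557 of 1596 kept their side of the threshold for the addition of gefitinib, 266 of 266 for the difference from the response without CKI and 227 of 228 for the other difference, ATG9B being the exception (adjusted p = 0.104 in edgeR without the libraries of over 1000 ALB counts).

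With the replicate number as a block, the counts were 6073, 2683 and 2107. The numbers are not taken to pair the libraries: deviations of same-numbered libraries with CKI and with the combination correlated at 0.092, 0.245 and 0.099 across genes, although each library correlated best with its own number. For CKI 2 mg/mL without and with gefitinib the same-number values were 0.081, 0.437 and 0.364. For untreated cells and gefitinib alone they were -0.284, 0.068 and -0.506.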

Other observations

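Genes at low levels were called lower less often than others on adding gefitinib to CKI 1 mg/mL, while the share called higher was close. Of 4474 genes tested that stayed under 5 CPM in both groups, 917 rose (20.5%) and 215 fell (4.81%), with a median log2 change of 0.30. Of the 11315 genes above that level in either group, 2115 rose (18.7%) and 2916 fell (25.8%). The change itself partly decides this split, since a gene that rose past 5 CPM leaves the lower class, and the difference was not tested. Symbols of non-coding or uncharacterised genes rose in 263 of 1257 cases (20.9%, against 19.2% of all genes) and fell in 71 (5.65%, against 19.8%), with a median of 0.27. Beside this stand the number of genes with a count and the share of the RNR2 row, both higher in the combination libraries; their part in it was not tested.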
